A study of Mus musculus with 4 samples.

Results

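Neighbouring genes can share 1 stretch of open chromatin, and 1925 such regions were found in the E15.5 mouse lung. Each was a region of overlapping peaks that held a peak of all 4 libraries, was under 5000 bp wide and overlapped the windows of 1 kb either side of the annotated ends of at least 2 different protein-coding genes. The 1925 regions were 3.12% of the 61781 regions of all 4 libraries under that width, and 15.2% of the 12664 of them that lay at any protein-coding gene end. They touched 3615 of 21631 protein-coding genes, or 16.7%. Most of them, 1849, touched 2 genes, while 75 touched 3 genes and 1 touched 5.

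The study profiled wild-type lungs to map open chromatin in connection with the homeobox factor HOXA5. E15.5 embryonic tissue was assayed by ATAC-seq, where Tn5 transposase cuts and tags accessible DNA. There was 1 group of 4 libraries, with no transgene and no treatment in the labels, and therefore no contrast between conditions. Whether the 4 replicates were separate embryos or litters was not in the labels, so every SD and p-value below measures the spread between these libraries, which may be technical.

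Transcription start sites of active genes usually lie in nucleosome-depleted DNA. In mammals many genes face each other head to head over a short distance, and such a pair can share a bidirectional promoter, often a CpG island that lacks a TATA box and serves a housekeeping function on both sides. Other neighbours run the same way, so that the end of one gene lies by the start of the next, or converge tail to tail, with both transcripts ending in the shared DNA. A head-to-head region here overlapped the windows around the starts of 2 genes on opposite strands. A tail-to-head region overlapped those around the end of 1 gene and the start of another on the same strand. A tail-to-tail region overlapped those around the ends of 2 genes on opposite strands. The starts and ends themselves did not have to lie inside the region.

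Strand was known for 17274 of the 21631 genes. By strand, 721 shared regions (37.5%) were head-to-head, 406 (21.1%) tail-to-head and 226 (11.7%) tail-to-tail. A further 67 had another arrangement, such as nested genes, and 505 involved a gene with no strand here and were left unclassed. They were set against 6621 regions at the start of 1 gene alone and 1523 at the end of 1 gene alone.

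Promoter windows of 5 head-to-head pairs and of 1 tail-to-head pair show the kind of DNA these regions hold. All were taken from RefSeq promoters on GRCm38.p6, the assembly that mm10 represents, and were chosen after their values had been seen because they include known bidirectional promoters and the gene the study is about. Each runs 5′ to 3′ on its gene's strand over 300 bases, with the gene's own listed start at base 251. Capitals mark every match, on either strand, to the short motifs named with each window. Timm23, a subunit of the mitochondrial inner membrane translocase, faces Parg, the poly(ADP-ribose) glycohydrolase, whose start is at base 193 of the window chr14:32201842-32202141 (minus strand). Its capitals are ETS motifs (CCGGAAG) at bases 204 and 261, on either side of the Timm23 start.
Timm23: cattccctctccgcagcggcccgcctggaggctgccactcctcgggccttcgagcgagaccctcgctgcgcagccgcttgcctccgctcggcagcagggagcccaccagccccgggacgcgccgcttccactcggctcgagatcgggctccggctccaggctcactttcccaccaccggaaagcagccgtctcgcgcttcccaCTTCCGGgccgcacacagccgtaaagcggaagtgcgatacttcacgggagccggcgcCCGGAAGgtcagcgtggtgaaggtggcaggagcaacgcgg
Brca1, a repair protein of homologous recombination, faces Nbr1, an autophagy receptor, whose start is at base 99 of chr11:101551906-101552205 (minus strand). The capitals at base 165, between both starts, are an NF-Y motif (CCAAT).
Brca1: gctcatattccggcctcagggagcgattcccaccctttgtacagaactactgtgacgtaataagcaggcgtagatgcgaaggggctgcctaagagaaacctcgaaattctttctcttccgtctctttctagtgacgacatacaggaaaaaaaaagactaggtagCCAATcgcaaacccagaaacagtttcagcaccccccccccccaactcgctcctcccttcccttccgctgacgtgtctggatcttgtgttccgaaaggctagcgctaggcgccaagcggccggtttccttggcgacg
Tap1, a peptide transporter of antigen presentation, faces Psmb9, an immunoproteasome subunit, whose start is at base 25 of chr17:34187306-34187605 (plus strand). The capitals are an NF-Y motif at base 29 and an SP/KLF motif (GGGCGG) read on the other strand at base 75.
Tap1: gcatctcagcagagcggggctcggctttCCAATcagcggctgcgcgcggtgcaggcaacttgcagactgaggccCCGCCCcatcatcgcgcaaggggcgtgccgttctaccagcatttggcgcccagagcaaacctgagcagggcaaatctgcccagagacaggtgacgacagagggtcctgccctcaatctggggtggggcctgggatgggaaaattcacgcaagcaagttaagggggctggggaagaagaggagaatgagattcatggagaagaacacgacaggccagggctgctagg
Hspe1, the small mitochondrial chaperonin, faces Hspd1, the large one. The capitals in chr1:55087898-55088197 (plus strand) are SP/KLF motifs at bases 79 and 130 and overlapping ETS motifs on the 2 strands at bases 171 and 174. The start of Hspd1 lies outside this window at its annotated gene end.
Hspe1: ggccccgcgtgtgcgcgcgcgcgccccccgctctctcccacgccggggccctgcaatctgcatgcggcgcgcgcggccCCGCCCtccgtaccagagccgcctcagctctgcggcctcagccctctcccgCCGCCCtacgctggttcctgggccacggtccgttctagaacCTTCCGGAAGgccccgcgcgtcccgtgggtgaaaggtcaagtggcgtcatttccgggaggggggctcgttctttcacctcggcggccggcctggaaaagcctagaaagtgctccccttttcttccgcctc
Col4a1 faces Col4a2, the partner chain of type IV collagen in basement membranes, whose start is at base 272 of chr8:11312777-11313076 (minus strand). The capitals are an NF-Y motif at base 106 and an SP/KLF motif at base 260.
Col4a1: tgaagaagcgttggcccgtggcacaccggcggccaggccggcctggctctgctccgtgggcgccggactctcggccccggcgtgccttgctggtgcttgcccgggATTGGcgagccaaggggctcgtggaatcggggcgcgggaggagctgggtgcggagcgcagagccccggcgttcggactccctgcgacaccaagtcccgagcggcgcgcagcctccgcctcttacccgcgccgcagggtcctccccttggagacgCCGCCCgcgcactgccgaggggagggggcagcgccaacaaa
Hoxa5, whose product is the homeobox factor of the study's title, has its start at base 251 of chr6:52204538-52204837 (minus strand), downstream of the end of Hoxa6. The capitals at base 47 are an NF-Y motif.
Hoxa5: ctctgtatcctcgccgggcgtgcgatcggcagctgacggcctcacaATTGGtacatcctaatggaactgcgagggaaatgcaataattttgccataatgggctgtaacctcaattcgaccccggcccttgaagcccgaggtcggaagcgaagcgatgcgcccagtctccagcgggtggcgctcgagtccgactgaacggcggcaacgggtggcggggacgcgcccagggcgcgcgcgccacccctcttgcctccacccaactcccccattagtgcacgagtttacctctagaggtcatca

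One library stood apart from the others. Replicate 1 had 134446 peaks on chromosomes 1 to 19 and X, with a median deposited fold enrichment over background of 8.99, while the other 3 libraries had 186141 to 211575 peaks with median folds of 3.73 to 3.90. In its list the peaks were named with the French for fresh, in the other lists with frozen, although the labels' protocol describes freezing for all. Read depth is unknown from peak lists. All 5 lung epithelium markers checked, among them Nkx2-1 and Sftpc, and all 5 lung mesenchyme markers, among them Tbx4 and Foxf1, had a peak at a gene end in every library. Of 6 genes of other organs 1 had one in all 4 libraries, Ins2 and Neurod1 each had one in 2 libraries, and Alb, Myh1 and Cyp3a11 had none in any. For scale, 57.4% of starts with no other protein-coding gene end within 5 kb had a peak within 1 kb in all 4 libraries.

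Pairs of facing starts were open almost without exception. Openness was counted over all pairs of gene ends up to 1 kb apart, whether open or not, and a pair was open in a library when 1 of its peaks touched both windows. Of 3541 such pairs 2375, or 67.1%, were open in all 4 libraries. The share was 865 of 896 head-to-head pairs (96.5%), 371 of 506 tail-to-head pairs (73.3%) and 216 of 725 tail-to-tail pairs (29.8%). Among lone starts, with no other protein-coding gene end within 5 kb, 6952 of 12116 (57.4%) were open in all 4, and among lone ends 1179 of 11186 (10.5%). With the ends of a pair at most 1 kb apart, a peak at 1 of them could touch both windows. A pair could thus count as open through either end, a lone start or end only through itself. How much this adds to the differences between pairs and lone starts or ends was not tested.

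In replicates 1 to 4, 97.2%, 98.0%, 98.1% and 98.0% of head-to-head pairs were open, against 59.8%, 63.3%, 64.1% and 63.9% of lone starts. Head-to-head pairs thus stood above lone starts in every library, with no overlap, by 35.1 ± 1.57 percentage points (mean ± SD, n = 4; exact two-sided sign-flip permutation test over libraries, p = 0.125). That p is the smallest 4 libraries can give, so none of the differences tested in this way could pass 0.05. Head-to-head pairs also exceeded tail-to-head pairs, open at 73.9%, 87.0%, 87.7% and 88.9%, by 13.4 ± 6.62 points, and tail-to-tail pairs, at 32.0%, 64.0%, 65.5% and 62.6%, by 41.8 ± 15.7 points (4 of 4 libraries and exact p = 0.125 for each). The shares of tail-to-head and tail-to-tail pairs were lowest in replicate 1, whereas those of head-to-head pairs lay within 1 point of each other. Without replicate 1 the differences of head-to-head pairs were 34.3 points from lone starts, 10.1 from tail-to-head and 34.0 from tail-to-tail pairs, and 391 regions in place of 226 were tail-to-tail. With openness counted by a summit between the ends or within 250 bp of either, the differences were 32.3 points from tail-to-head and 71.4 from tail-to-tail pairs.

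**Figure D1:**
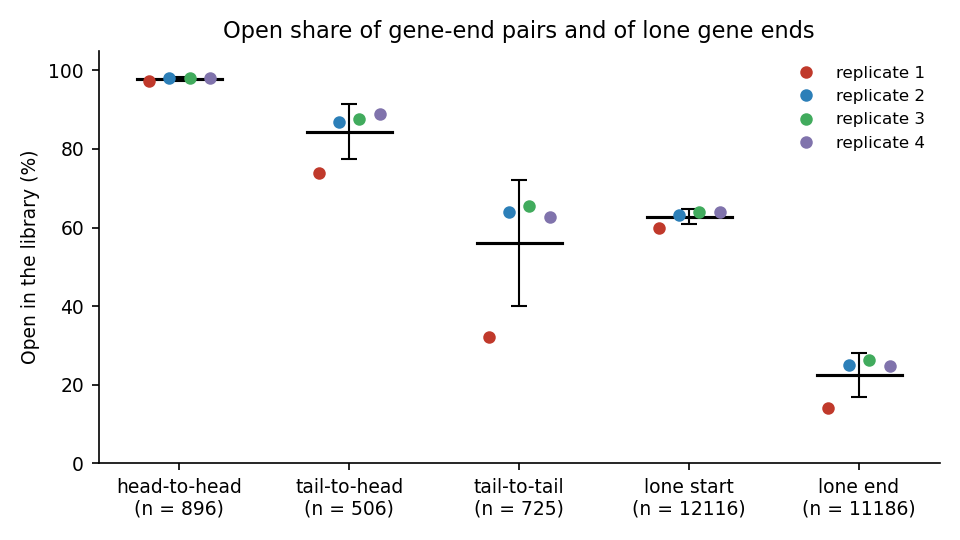
Percent of near gene-end pairs and of lone gene ends that were open, by arrangement (x axis) and library (points), with the mean and SD over 4 libraries. Head-to-head pairs lie between 97.2% and 98.1% in every library, while tail-to-tail pairs lie at 32.0% in replicate 1 and at 62.6% to 65.5% in the other 3.

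Tail-to-head and tail-to-tail pairs were likewise open more often than lone starts or lone ends. These comparisons were chosen after seeing the data, and in them too a pair could count as open through either end. Tail-to-head pairs exceeded lone starts by 21.6 ± 5.07 points, and tail-to-tail pairs exceeded lone ends, open in 14.0%, 24.9%, 26.2% and 24.7%, by 33.6 ± 10.4 points (4 of 4 libraries, exact permutation p = 0.125 for each). Tail-to-tail pairs with no listed start within 2 kb were open in 51.5 ± 16.1% against 24.2 ± 6.27% of lone ends of the same kind, with 154 of 619 and 1047 of 9444 open in all 4 libraries. That difference was 27.3 ± 9.84 points (4 of 4 libraries, exact permutation p = 0.125).

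The difference between facing and lone starts was small among CpG-rich starts and large among CpG-poor ones. Starts were called CpG-rich where the promoter window had a ratio of observed to expected CpG of at least 0.6. Where both promoters were CpG-rich, 621 of 626 head-to-head pairs were open in all 4 libraries (99.5 ± 0.13% per library), against 4557 of 4766 CpG-rich lone starts (97.0 ± 0.668%), a difference of 2.48 ± 0.560 points in place of 35.1. Where both were CpG-poor, 33 of 44 pairs were open in all 4 (84.1 ± 3.21%), against 1894 of 6180 CpG-poor lone starts (37.5 ± 2.15%). The CpG-poor difference was 46.6 ± 1.73 points. Both differences were above 0 in 4 of 4 libraries (exact permutation p = 0.125), and both were chosen after seeing the data. Of 92 pairs with 1 promoter of each kind, 91 were open in all 4 libraries.

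The 31 head-to-head pairs that were not open in all 4 libraries included 12 with no peak touching both windows in any library and 12 with such a peak in 3 libraries. Among the 12 without a peak were Triml2/Triml1, Mlc1/Mov10l1 (a glial membrane protein and a germ-line RNA helicase), Spata48/Zpbp (the second a protein of sperm binding to the zona pellucida), H2bc1/H2ac1 (histone genes of the germ line) and Tfpi2/Gngt1 (the second a transducin subunit of rod photoreceptors). Stat5b/Stat5a, a pair of cytokine-activated transcription factors, had no such peak in replicate 1 only, and Zic4/Zic1, zinc finger factors of the cerebellum, none in replicate 4 only. The 31 also included Ccdc174/Grip2, with no such peak in any library, Ctnnd1/Btbd18, with one in replicate 3 only, and Rnf151/Rps2, with none in replicate 1 only. The pairs named here were picked after their values were seen, so no common kind of gene can be read from them.

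The signal at shared regions was ranked within each library. The percentile of a region is the rank, by the authors' fold enrichment, of the strongest peak of that library in the region among all its peaks, with 100 the strongest. Median percentiles of the shared regions were 90.3, 95.2, 95.7 and 95.1 in replicates 1 to 4, against 84.2, 91.6, 92.5 and 92.0 at regions of 1 gene, a difference of 3.99 ± 1.41 (4 of 4 libraries, exact permutation p = 0.125). Head-to-head regions led, with medians of 94.5, 97.2, 97.6 and 97.1, against 88.1, 93.9, 94.5 and 94.0 at regions of 1 start, a difference of 3.96 ± 1.59 (4 of 4 libraries, exact permutation p = 0.125). With CpG-rich starts on both sides, a comparison added after seeing the data, the difference was 2.37 ± 0.868, with peaks of −log10 q of 5 or more it was 6.03, and with regions under 2000 bp 10.1. In fold enrichment the head-to-head medians were 81.0, 34.0, 30.1 and 29.3, against 42.7, 19.05, 16.7 and 16.8 at regions of 1 start.

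Tail-to-head regions lay close to regions of 1 start. Their medians were 89.6, 94.9, 95.3 and 94.9, above regions of 1 start by 1.03 ± 0.311 (4 of 4 libraries, exact permutation p = 0.125; chosen after seeing the data) and below head-to-head regions, which exceeded them by 2.93 ± 1.29 (4 of 4 libraries, exact permutation p = 0.125), by 5.63 with regions under 2000 bp and by 1.02 with regions of any width. Tail-to-tail regions had medians of 54.6, 81.4, 83.9 and 82.6, against 58.1, 78.1, 81.8 and 80.0 at regions of 1 end. They were above regions of 1 end in 3 libraries and below them by 3.53 in replicate 1 (mean difference 1.10 ± 3.13, exact permutation p = 0.625; chosen after seeing the data), so no difference in strength beyond the spread between libraries was found there. Head-to-head regions exceeded tail-to-tail regions by 21.0 ± 12.6, with 39.9 in replicate 1 and 13.7 to 15.8 in the others (4 of 4 libraries, exact permutation p = 0.125). With regions chosen without replicate 1, the difference was 24.9 ± 2.12 over the other 3 libraries, and over all 4 it was 32.1 with regions under 2000 bp and 12.04 with regions of any width.

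**Figure D2:**
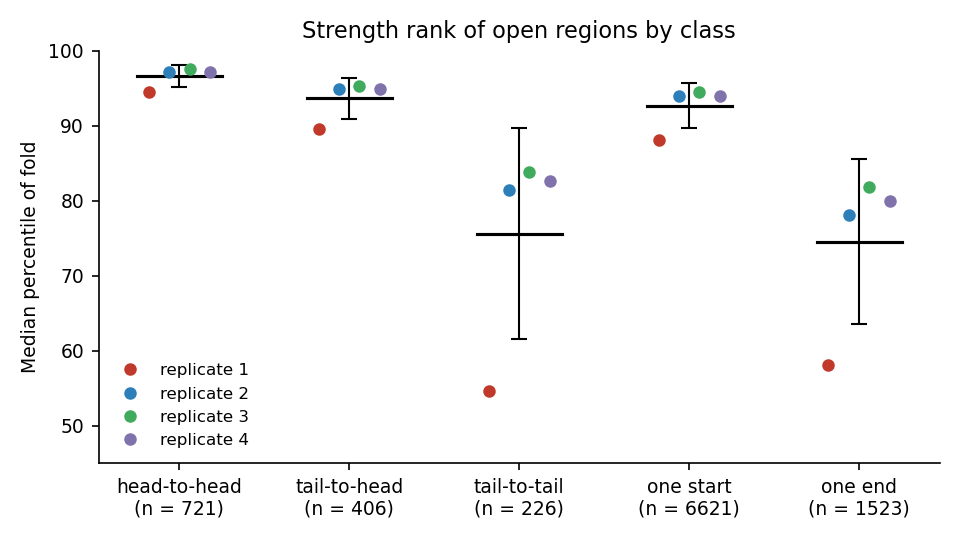
Median percentile of fold within its own library (y axis) for each class of shared region and for regions of 1 start or 1 end, by library (points) with the mean and SD over 4 libraries. Head-to-head medians lie at 94.5 to 97.6, while tail-to-tail and 1-end medians lie at 54.6 to 58.1 in replicate 1 and at 78.1 to 83.9 in the other libraries.

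The spread among head-to-head regions was narrow. Averaged over libraries, 130 of 721 (18.03%) reached the 99th percentile or more and 3 (0.416%) lay under the 50th, against 466 (7.04%) and 208 (3.14%) of the 6621 regions of 1 start. Tail-to-head regions had 34 (8.37%) and 9 (2.22%), and tail-to-tail regions 1 (0.442%) and 29 (12.8%). Strong signal was thus common where starts face each other and rare where ends do.

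Widths differed between the classes, and a wide region has more peaks to take the strongest from and reaches more windows. Median widths were 2900 bp for head-to-head, 3217.5 bp for tail-to-head and 2598.5 bp for tail-to-tail regions, against 2443 bp at 1 start and 1723 bp at 1 end. Within bands of width, head-to-head regions had mean percentiles of 90.1 ± 5.68, 95.8 ± 1.77 and 97.7 ± 0.986 (SD, n = 4) below 1500 bp, from 1500 to 3000 bp and from 3000 to 5000 bp, against 76.8 ± 8.82, 92.8 ± 2.97 and 96.0 ± 1.43 at 1 start. Head-to-head regions were thus higher in each band. Tail-to-head regions had 74.7, 93.3 and 94.8 in the same bands, below regions of 1 start in the narrowest and the widest. Tail-to-tail regions had 61.8, 72.5 and 83.7, against 66.2, 76.5 and 84.3 at 1 end, below in all 3 bands. The bands were not tested.

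Openness varied little with the distance between facing starts below 1 kb. Head-to-head pairs were open in 97.8 ± 0.16% of cases where the genes overlapped at their starts, 98.6 ± 0.753% at 0 to under 100 bp, 97.3 ± 0.484% at 100 to under 300 bp and 96.4 ± 1.02% at 300 to 1000 bp (mean over 4 libraries ± SD). Of the 896 pairs 313 overlapped, and the median gap of those that did not was 101 bp. The percentiles of open pairs were 96.4 ± 1.65 where they overlapped and 96.6 ± 1.48 at 0 to under 100 bp, against 98.2 ± 0.82 at 100 to under 300 bp and 98.0 ± 0.796 at 300 to 1000 bp.

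Further apart, a common peak became rarer and separate peaks more frequent. A peak was counted as reaching a start when it came within 250 bp of it. For starts under 300 bp apart the outcome was thus largely set by this tolerance, and at 300 to under 1000 bp in part. No pair under 300 bp had separate peaks in any library, and none under 100 bp had a peak at 1 start alone. Where the starts were under 100 bp apart, 98.0 ± 1.04% of 287 pairs had the same peak at both, and at 300 to under 1000 bp 90.5 ± 4.32% of 97 pairs did. At 1000 to under 2000 bp the same peak reached both starts in 21.5% of 65 pairs in replicate 1, and in 55.4%, 66.2% and 63.1% in replicates 2 to 4. At 2000 to under 3000 bp the same peak served 17.8 ± 11.6% of 59 pairs and separate peaks 39.8 ± 5.62%, and at 3000 to 5000 bp 9.96 ± 7.26% and 55.4 ± 3.27% of 138 pairs. Separate peaks were thus more frequent than a common peak from 2 kb on in the mean over libraries, and in replicate 1 already from 1 kb on.

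**Figure D3:**
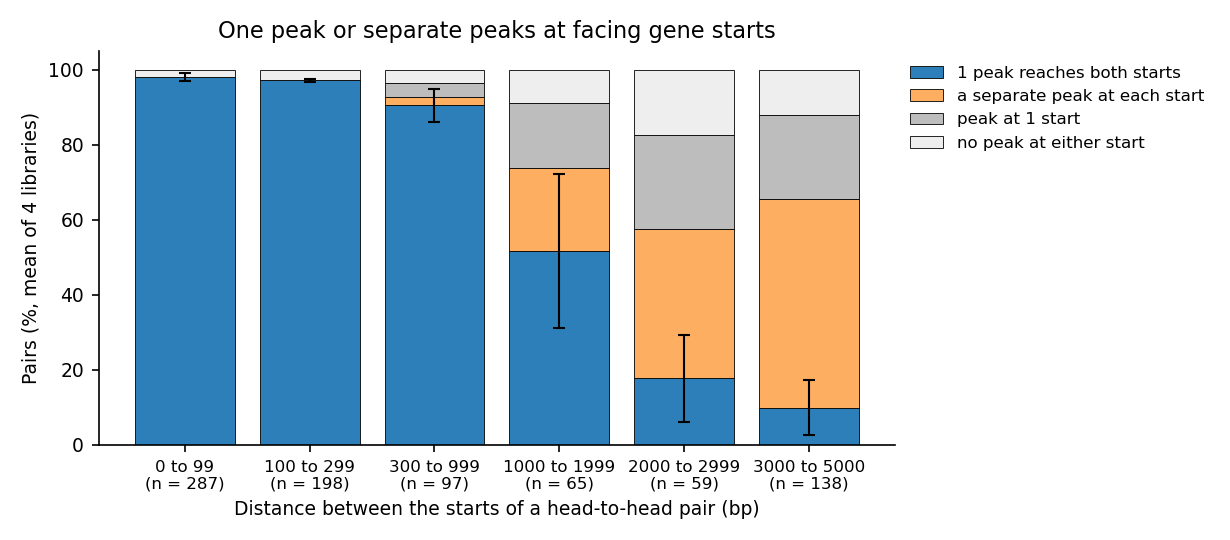
Percent of head-to-head gene pairs (y axis) whose starts are reached by the same peak or by separate peaks, by distance between the starts in bp (x axis), as stacked bars of the mean over 4 libraries, with the SD of the same-peak share as a line. The remaining parts are pairs with a peak at 1 start or at none. The same peak serves 98.0% of pairs under 100 bp apart and 9.96% of pairs 3000 to 5000 bp apart, where separate peaks serve 55.4%.

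The summit of the strongest peak tended to lie between facing starts. In 207 head-to-head regions whose starts were 100 to 1000 bp apart, it lay between both starts in 71.5%, 66.7%, 65.7% and 65.2% of regions in replicates 1 to 4, or 67.3 ± 2.88%. The DNA between the starts made up 8.39% of the region on average, but summits do not spread evenly over a region. The median distance of the summit from the midpoint was 69 ± 4.97 bp. With starts 300 to 1000 bp apart, 75.8 ± 3.48% of 62 regions had the summit between the starts, and with 100 to under 300 bp 63.6 ± 2.72% of 145. In tail-to-head regions, 29.3% of summits fell in the 100 bp centred on the start and 19.8% in the next 100 bp upstream. Summits at or upstream of a start were thus not particular to facing pairs, and their part in the share between facing starts was not tested.

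In tail-to-head regions the summit went with the start. Among 157 of them with the end and the start 100 to 1000 bp apart, it was nearer the start than the end in 91.7%, 90.4%, 89.8% and 93.0%, or 91.2 ± 1.41%. The median distance was 95.8 ± 18.2 bp to the start and 634 ± 16.6 bp to the end. Over all regions of a class, the summit lay within 1 kb of both ends in 88.8 ± 0.0801% of head-to-head, 37.3 ± 0.508% of tail-to-head and 29.3 ± 1.27% of tail-to-tail regions. These shares depend in part on spacing, since no summit can be within 1 kb of both ends where these are over 2 kb apart. Some regions had such ends, with 3639 bp at the tail-to-head Aqp5/Aqp6 and 4976 bp at the tail-to-tail Ucma/Mcm10. Starts over 1 kb apart were found in 63 of 721 head-to-head regions. The classes can therefore not be compared by this measure alone.

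**Figure D4:**
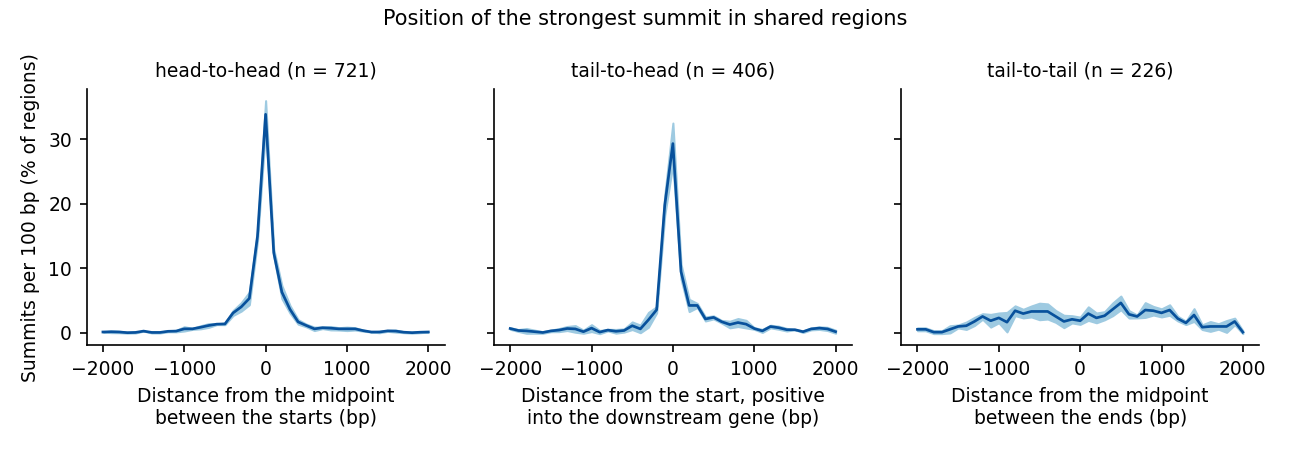
Summits of the strongest peak per 100 bp as percent of regions (y axis), by distance in bp (x axis) from the midpoint of both starts, from the start of the downstream gene or from the midpoint of both ends, for head-to-head, tail-to-head and tail-to-tail regions. Lines are means and bands the SD over 4 libraries. Head-to-head summits pile up at the midpoint, and 88.8% lie within 1 kb of both ends, against 29.3% in tail-to-tail regions, where some ends are too far apart for this.

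Tail-to-tail regions mostly held no listed start. Of 226, 189 (83.6%) held no start of a protein-coding or long non-coding RNA gene in the RefSeq tables, and 37 held 1 or more. The 37 with a start had median percentiles of 85.7, 92.4, 93.0 and 93.6, and the 189 without had 49.0, 79.4, 82.9 and 80.0. The highest tail-to-tail regions were of the first kind, as the named regions below show.

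Promoters at head-to-head regions were rich in CpG. Their median ratio of observed to expected CpG was 0.850 over 1323 listed promoters, against 0.738 at regions of 1 start, 0.501 at lone starts and 0.594 over all 15534 listed promoters. At least 0.6 was reached by 87.8% of the head-to-head promoters, against 68.2% at regions of 1 start, 43.5% at lone starts and 49.6% of all. Downstream genes of tail-to-head regions resembled regions of 1 start, with a median of 0.708 and 64.6% at or above 0.6.

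Motif content was searched on both strands for exact letters in windows of 300 bases. CCGGAAG, the core of ETS factor sites, was in 28.4% of head-to-head promoters, against 14.8% at regions of 1 start and 12.2% of all promoters. The NRF1 motif, bound by a regulator of nuclear genes for mitochondria, was in 16.2%, against 9.69% and 6.91%. TATAAA, the TATA box, was in 4.23%, against 7.08% and 13.8%. Among CpG-rich promoters only, ETS letters were in 30.4% of head-to-head promoters, against 17.9% at 1 start and 20.1% of all, and NRF1 letters in 18.2%, against 13.4% and 13.2%. Downstream genes of tail-to-head regions had ETS letters in 24.5%, and in 32.3% of their CpG-rich promoters, so this share was not particular to facing starts, while they had NRF1 letters in 7.14% and 10.2%. GGGCGG, read by SP and KLF factors, and CCAAT, read by NF-Y, differed less, at 65.9% and 41.3% of head-to-head promoters, against 64.8% and 38.1% at 1 start and 47.4% and 39.8% of all. Among CpG-rich promoters GGGCGG was less frequent at head-to-head regions, at 69.4%, against 75.98% at 1 start and 74.4% of all. The YY1 motif was in 2.19%, against 1.297% and 1.05%. TGACGTCA (the cyclic AMP response element) was in 3.78%, against 3.24% and 2.41%, CACGTG (the E-box) in 11.3%, against 9.97% and 8.11%, and a ZNF143-type motif in 0.907%, against 0.607% and 0.470%. Among CpG-rich promoters TGACGTCA hardly differed, at 4.04%, against 4.02% and 3.95%, nor did CACGTG, at 11.4%, against 11.5% and 11.5%. There TATAAA was in 3.79%, against 5.38% and 5.91%. The YY1 and ZNF143-type motifs remained higher there, at 2.41% and 0.947%, against 1.73% and 0.543% at 1 start. The windows of facing genes overlap in part, so that 1 match can be counted for both, and the shares carry no test.

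Most lists of basic cell functions had a larger share of their genes at shared regions than the lists of lung epithelium and mesenchyme. Against 16.7% of all protein-coding genes, shared regions were touched by 14 of 31 chaperones (45.2%), 33 of 78 mitochondrial ribosomal proteins (42.3%), 20 of 49 genes named Nduf, of respiratory complex I (40.8%), 13 of 33 aminoacyl-tRNA synthetases (39.4%), 42 of 108 genes of DNA replication and repair (38.9%) and 19 of 51 proteasome subunits (37.3%). Cytosolic ribosomal proteins had 23 of 84 (27.4%) and histones 21 of 84 (25%). Most chaperones (11 of the 14), mitochondrial ribosomal proteins (21 of the 33) and complex I genes (14 of the 20) were at head-to-head regions, whereas of the 23 cytosolic ribosomal proteins 4 were. Of all 3615 protein-coding genes at shared regions, 1461 were at head-to-head regions.

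Lung epithelium, mesenchyme and smooth muscle lists lay below the background, and the endothelium list close to it. Shared regions were touched by 2 of 51 genes of the lung mesenchyme (3.92%), 3 of 56 of the lung epithelium (5.36%), 1 of 24 of smooth muscle (4.17%) and 5 of 33 of endothelium (15.2%). Zinc finger proteins had 46 of 397 (11.6%), solute carriers 58 of 375 (15.47%), Tmem genes 51 of 238 (21.4%), Hox genes 4 of 39 (10.3%), keratins 3 of 53 (5.66%) and olfactory receptors 2 of 1110 (0.180%). Basement membrane and matrix genes had 7 of 33 (21.2%), among them all 6 chains of type IV collagen. The lists differ in how often a neighbour is near at all. Of the 7048 genes with another gene end within 2 kb, 47.8% were at a shared region, and of such genes 70% of 20 chaperones, 62% of 50 mitochondrial ribosomal proteins, 60% of 65 replication and repair genes, 40.5% of 42 cytosolic ribosomal proteins, 38.2% of 55 histones, 50% of 8 endothelial genes, 20% of 10 lung epithelium genes and 20% of 10 lung mesenchyme genes were. Cytosolic ribosomal proteins and histones were thus above the share of all genes, but below it among genes with a near neighbour. The lists were chosen with earlier results of these data known, and the counts carry no test.

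**Figure D5:**
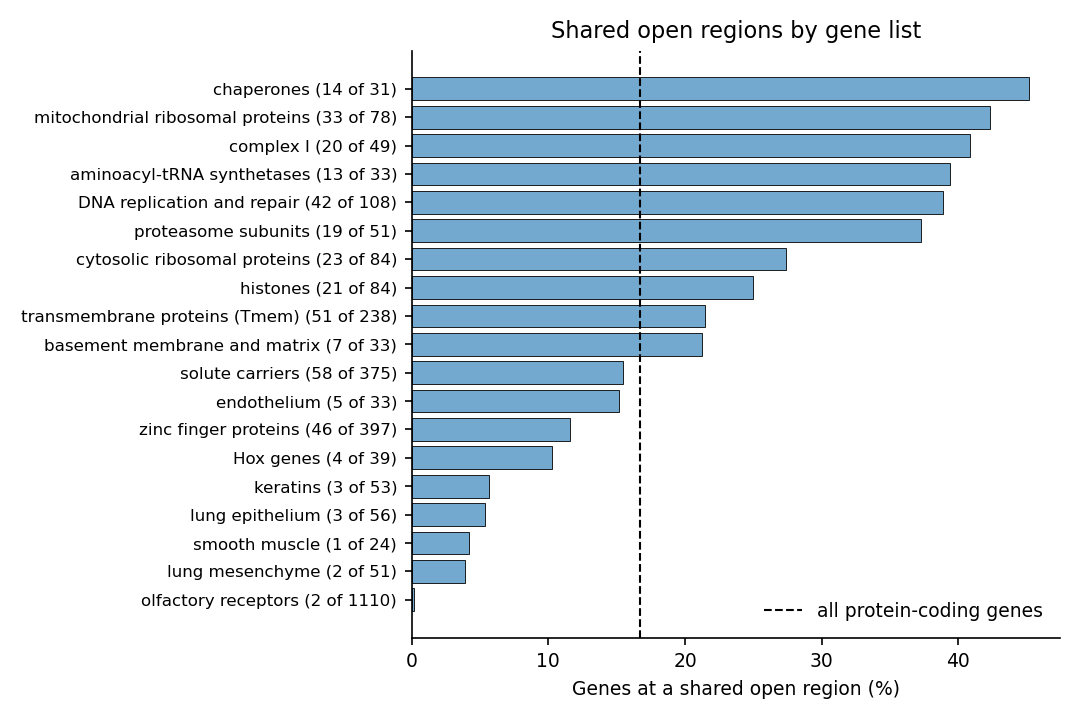
Percent of the genes of each list that lie at a shared region (x axis), with lists running down the page and the share over all protein-coding genes as a line at 16.7%. Chaperones reach 45.2% and mitochondrial ribosomal proteins 42.3%, while lung epithelium and lung mesenchyme lie at 5.36% and 3.92%.

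The strongest head-to-head region joined Samd4b, a repressor of translation, and Gmfg, an actin regulator of the glia maturation factor family. It spanned chr7:28435005-28439155 and had fold enrichments of 437, 151, 134 and 157 in replicates 1 to 4, which placed it at the 99.93, 99.95, 99.95 and 99.96 percentile. The starts are 1278 bp apart. Aldh6a1, an enzyme of valine breakdown, and Lin52, a subunit of the MuvB complex of cell cycle genes, shared chr12:84449787-84452862 at fold 423, 147, 136 and 132. Tpmt, a thiopurine methyltransferase, and Kdm1b, a histone demethylase, had starts 35 bp apart and fold 384, 126, 131 and 134. The next 5 were Lins1/Asb7 (mean percentile 99.89 ± 0.0211), Pgap2/Nup98 (99.89 ± 0.0326), Spata5/Nudt6 (99.87 ± 0.0713), Ccdc151/Prkcsh (99.87 ± 0.0478) and Prr11/Ska2 (99.86 ± 0.0438), which include a nucleoporin (Nup98), the beta subunit of glucosidase II (Prkcsh) and a kinetochore protein (Ska2). All 8 were in the top 1% of peaks in every library.

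A list of 25 textbook neighbour pairs, most of them known for a bidirectional promoter, was then looked up. It also held Hoxa5/Hoxa6, Ager/Pbx2 and Commd3/Bmi1, which are tail-to-head here, and Ercc1/Cd3eap, which is tail-to-tail. In this annotation 19 had ends within 1 kb of each other, 18 of these were open in all 4 libraries, and 16 of the 25 were at a shared region. Among all near pairs 67.1% were open in all 4 libraries, and among head-to-head pairs 96.5%, so the textbook pairs did not stand out from facing pairs. Atm, the kinase that signals DNA double-strand breaks, and Npat, the activator of histone genes, had starts 61 bp apart at chr9:53535122-53537959, with fold 200.1, 62.1, 52.1 and 53.2 and a percentile of 99.1 ± 0.0835. Brca1/Nbr1, whose promoter is printed above, had fold 214, 58.5, 58.5 and 53.2 and a percentile of 99.1 ± 0.162 at chr11:101549849-101553917. Mcm4, a helicase subunit, and Prkdc, the DNA-dependent protein kinase, had 99.01 ± 0.212. The purine synthesis enzymes Paics and Ppat had 99.2 ± 0.282, and the chaperonins Hspe1 and Hspd1 98.9 ± 0.39. All of these were high in every library.

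Other textbook pairs were lower. Timm23/Parg had fold 23.8, 11.04, 10.3 and 10.9 and percentiles of 79.04, 88.8, 90.3 and 90.2 at chr14:32201419-32202838, and Surf2/Surf1 (the second an assembly factor of cytochrome oxidase) percentiles of 78.5, 92.1, 92.9 and 90.2, both lowest in replicate 1. Psmb9/Tap1 had 93.1, 96.6, 96.5 and 95.8. The type IV collagen pairs followed the order Col4a2/Col4a1 at 93.7 ± 1.59, Col4a3/Col4a4 at 79.1 ± 10.9 and Col4a6/Col4a5 at 68.7 ± 12.2, by mean. Per library, Col4a2/Col4a1 had 91.4, 94.7, 94.7 and 93.9, Col4a3/Col4a4 had 62.8, 84.4, 83.9 and 85.3 and Col4a6/Col4a5 had 53.3, 76.7, 64.6 and 79.99, so this order held in each library, although the ranges of the second and the third over libraries overlapped. Regions that joined Trp53/Wrap53 (6421 bp), Sars2/Mrps12 (5856 bp) and Ager/Pbx2 (27173 bp) were too wide to be members, although each pair was open in all 4 libraries.

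Genes of DNA replication and repair shared 1 region or more with a neighbour in 42 of 108 cases, 20 of them at head-to-head regions. Over all protein-coding genes it was 3615 of 21631, with 1461 at head-to-head regions. Pcna, the sliding clamp of replication, was touched by a head-to-head region with Cds2, a lipid synthesis enzyme, at 99.1 ± 0.422, and by a tail-to-head region at its other end with Tmem230 at 96.4 ± 2.28. The replication protein A subunits Rpa1 (with Smyd4) and Rpa3 (with Umad1) had percentiles of 98.8, 99.1, 99.3 and 98.8 and of 97.9, 98.9, 99.04 and 99.2. The checkpoint kinases differed in arrangement, with Chek2 and Hscb at an unclassed region at 98.9 ± 0.243 and Chek1 in a tail-to-head region with Stt3a at 95.5 ± 2.24. Lower in the list were Emc3/Fancd2 at 84.5 ± 8.48 and Rlbp1/Fanci at 92.7 ± 5.13. Tail-to-tail regions of the list ran from high to low. Cops6/Mcm7 had 92.3, 97.4, 96.97 and 96.9 at a region with 1 listed start inside and 18.1, 76.7, 82.9 and 76.4 at another with none. Camk1/Ogg1 and Ucma/Mcm10 also held no listed start. Camk1/Ogg1 had 89.5, 95.5, 96.02 and 94.2, and Ucma/Mcm10 80.3, 87.4, 89.3 and 83.6. The regions of Pold2/Aebp1 (3.68, 71.1, 72.3 and 73.9), Rfc4/Eif4a2 (28.5, 80.5, 72.3 and 45.7) and Xrcc6/Snu13 (47.3, 82.3, 42.3 and 66.7) lay lower, with the first near the bottom of its list in replicate 1.

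Among lung genes, Hoxa5 and Hoxa6 were tail to head, with 2 shared regions between them. The first, chr6:52203250-52205154, held the Hoxa5 start and had fold 118, 32.3, 27.9 and 26.1 and percentiles of 96.9, 96.98, 97.3 and 96.6. The second, chr6:52205205-52206178, held no listed start and had fold 7.39, 4.97, 5.29 and 3.73 and percentiles of 41.4, 68.5, 75.02 and 45.7. The region at the start was above the other in every library. Abca3, the lipid transporter of lamellar bodies in alveolar type II cells, faced Abca17 at chr17:24350669-24352938, with percentiles of 93.4, 96.7, 96.7 and 97.2. Aqp5, the water channel of alveolar type I cells, and Aqp6 shared chr15:99593973-99598485, with no listed start inside, at 85.7, 94.7, 94.6 and 96.1. Rab25, a recycling GTPase of epithelia, and Lamtor2 had 79.04, 93.4, 93.3 and 93.5, and Tagln, an actin-binding protein of smooth muscle, and Sidt2 had 92.2, 93.1, 93.9 and 94.1. These 3 epithelial genes and Tagln were above the 79th percentile in every library.

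The 4 endothelial genes with named neighbours were at tail-to-tail or unclassed regions. Egfl7, a secreted vascular protein, ended towards Agpat2 at 83.6, 89.95, 92.5 and 90.5, Eng, a co-receptor for TGF-beta family ligands, towards Fpgs at 73.02, 85.00, 86.2 and 85.3, and Cldn5, the tight junction protein of vessels, towards Cdc45, a replication factor, at 73.8, 80.5, 77.2 and 78.4. Esam, an endothelial adhesion molecule, and Vsig2 had 2 regions, at 50.5, 83.04, 84.7 and 82.6 and at 65.2, 56.05, 42.3 and 76.4. The order of the first 3 by mean was Egfl7 (89.1 ± 3.85), Eng (82.4 ± 6.26) and Cldn5 (77.5 ± 2.78). Egfl7 was above Eng in every library, and Eng was above Cldn5 in every library but replicate 1, although the ranges of neighbours in this order overlapped. The region of Cldn5 held 1 listed start, and those of Egfl7 and Eng held none.

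The strongest tail-to-head region joined the end of Cpne9, a copine, and the start of Brpf1, a scaffold of histone acetyltransferase complexes, at chr6:113304173-113308789. Its fold enrichments of 539, 157, 149 and 188 were above those of Samd4b/Gmfg in each library. Brpf1 was touched again at its end, where the start of Ogg1, the glycosylase that removes oxidised guanine, lay in a region at 99.65 ± 0.0667. Rab5b/Cdk2, which also touches Pmel, had 99.89 ± 0.0312, and Asf1b/Prkaca, where Asf1b is a histone chaperone and Prkaca a catalytic subunit of protein kinase A, 99.72 ± 0.124. Commd3/Bmi1, where Bmi1 is a Polycomb protein, had 96.1, 97.4, 97.4 and 97.7. The lowest were Slc23a3/Cnppd1 at 25.5 ± 18.6 and Dennd1c/Tubb4a at 34.6 ± 23.02.

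Each of the 8 highest tail-to-tail regions held at least 1 listed start. The highest, Rps21/Cables2 at chr2:180255179-180258315, holds 2 listed starts and the ends of a short ribosomal protein gene and its neighbour, and had fold 336, 122, 106 and 109.5. Mmel1/Prxl2b followed at 98.9 ± 0.543 and Fth1/Best1 at 98.6 ± 0.31, where Fth1 is the ferritin heavy chain. The histone pairs H1f6/H4c3, H2ac21/H2ac20 and H4c4/H2bc6 had 97.9 ± 0.761, 97.5 ± 0.597 and 97.5 ± 0.831. The 4 lowest held none, among them Rmnd5b/Nhp2 at 14.3, 1.35, 58.9 and 34.3 and Phkg1/Sumf2 at 14.3, 29.98, 58.9 and 21.1, and their values differed widely between libraries.

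Some regions differed strongly between libraries. The 3 tail-to-tail regions with the largest SD were low in replicate 1 alone, with Tufm/Atxn2l at 1.38, 79.4, 82.9 and 79.99, Cct7/Fbxo41 at 1.38, 79.4, 82.9 and 66.7 and Ubxn6/Chaf1a at 0.249, 80.5, 68.9 and 70.8. In fold the gap looked smaller, with 3.21, 6.63, 6.68 and 6.22 at Tufm/Atxn2l. The 3 lowest head-to-head regions were Tmem190/Il11 at 3.68, 49.3, 68.9 and 34.3 (Il11 is a cytokine), Ngef/Neu2 at 43.5, 56.05, 51.6 and 8.73 and Zic4/Zic1 at 21.8, 61.2, 58.9 and 21.1, spread widely between libraries. A percentile in replicate 1 and one in the other libraries stand for different folds, since the median fold of replicate 1 was higher.

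The width limit fell among strong regions. Just under it were Ppp6r1/Hspbp1 (4999 bp, mean percentile 97.6) and Fbl/Dyrk1b (4994 bp, 98.8), and just over it Rhoa/Gpx1 (5002 bp, 98.2) and Gatd3a/Pwp2 (5009 bp, 97.8). The region that touched 5 genes, Frs3/Tomm6, had percentiles of 92.9, 97.5, 97.2 and 98.3, and was picked for that count. In all, 1194 of the 4390 regions of 5000 bp or more held by all 4 libraries touched 2 or more genes and were not members.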

How the data were processed

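Peak lists of 4 ATAC-seq libraries of wild-type lung were used as deposited. The submitters' processing notes name MACS3 (version 3.0.1), Bowtie2 (version 2.5.2), SAMtools (version 1.18), bedtools (version 2.31.0), deepTools, Trim Galore, FastQC (version 0.12.1) and the mouse build mm10, and their order and parameters are not given in the sources used here. Each deposited peak carries a fold enrichment (a ratio of its summit to background), −log10 p and q values, a score and the offset of its summit. Only the fold, the −log10 q (for a stricter alternative) and the summit were used. The deposited score was not used.

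Peaks on chromosomes 1 to 19 and X were merged (Python 3.11.15, NumPy 2.4.6, pandas 2.3.3, SciPy 1.17.1). Gene ends came from a RefSeq table of GRCm38.p6, which mm10 represents. Strand came from the RefSeq promoter table, matched by gene ID for 79.9% of genes. For each pair of genes touched, the nearest ends gave its class, and a region took the first that applied of head-to-head, tail-to-head, tail-to-tail and other. Differences were computed per library and tested by exact two-sided sign-flip permutation over the 4 libraries, since regions and genes are not replicates. The script was tested on simulated data. Alternatives were other libraries, thresholds, windows, widths, overlaps and gene sets.

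Members, gene lists and tests were chosen with earlier results of these data known. Regions named are textbook pairs, in each class the 8 highest, the 4 lowest and the 3 most variable by percentile, those touching the most genes or with the shortest and longest distances, members of the lung, endothelium and repair lists and those nearest to the width limit, leaving out predicted genes. Not all of them are printed, and results for some genes are not reported here.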

Additional observations from a re-analysis of the deposited data

Results flagged for a closer look

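A library was flagged where its gap to the nearest of the other 3 made up most of the range over the 4 (Dixon's 95% limit), which chance alone gives in about 1 in 20 groups of 4. Of 8 main values 5 were flagged, each because replicate 1 was the highest. In replicate 1 the percentile of head-to-head regions exceeded that of regions of 1 start by 6.34, that of tail-to-head regions by 4.86 and that of tail-to-tail regions by 39.9, and open head-to-head pairs exceeded open tail-to-tail pairs by 65.2 points and open tail-to-head pairs by 23.3 points.

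Of 128 named regions 34 were flagged, and in all 34 replicate 1 was the lowest. All of them, like the main values, come from the same 4 libraries, and some were named for their spread between these. The counts of flags can therefore not be set against the 1 in 20. The replicate 1 percentile was 90 or more at Cox20/Hnrnpu 96.7, Dclre1c/Suv39h2 94.6, Tmem230/Pcna 92.9, Pcna/Cds2 98.4, Capza1/St7l 92.6, Mmel1/Prxl2b 98.1, Pxmp2/Pole 96.03, Cops6/Mcm7 92.3, Xpc/Lsm3 96.3, Fbl/Dyrk1b 98.00, Palb2/Dctn5 94.01, Chek1/Stt3a 92.2, Fyco1/Xcr1 99.75, Htd2/Rpp14 93.4, Osgep/Apex1 94.04, Abca3/Abca17 93.4, Apom/Bag6 94.5 and Tmem258/Fen1 90.6. It was from 50 to 90 at Col4a3/Col4a4 62.8, Fpgs/Eng 73.02, Rab25/Lamtor2 79.04, Sh2d6/Capg 77.1, Rlbp1/Fanci 85.00, Esam/Vsig2 50.5, Timm23/Parg 79.04 and Aqp5/Aqp6 85.7. It was under 50 at Cfc1/Prss40 47.3, Ttc30a2/Ttc30a1 18.1, Tssk3/Fam229a 43.5, Cops6/Mcm7 18.1, Tufm/Atxn2l 1.38, Mast1/Rtbdn 14.3, Pold2/Aebp1 3.68 and Ubxn6/Chaf1a 0.249. Cops6/Mcm7 has 2 regions. Replicate 1 also had the fewest peaks (134446) and the highest median fold (8.99) of the 4 libraries, and the part of these in the flags was not tested.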

How the results depend on the processing

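Of 150 alternative values 85 were differences, and all 85 were above 0 as in the main results, although many changed in size. The rest were counts and shares of summits, which have no direction to change. Of the counts and the share of summits, 13 values moved by more than 1.5 times or by more than 1 SD. Leaving out each library in turn gave 2002 to 2291 shared, 739 to 783 head-to-head, 419 to 468 tail-to-head and 233 to 391 tail-to-tail regions, the last 391 without replicate 1, and a share of summits between the starts of 64.3% to 68.5%. Requiring at least 3 of 4 libraries gave 404 tail-to-tail regions. Windows of 2.5 kb gave 746 tail-to-head and 393 tail-to-tail regions and 63.6% of summits between the starts. Regions under 2000 bp left 455 shared, 132 head-to-head, 78 tail-to-head and 77 tail-to-tail regions, and regions of any width gave 3119 shared, 821 tail-to-head and 376 tail-to-tail regions. With CpG-rich starts only, added after seeing the data, head-to-head pairs exceeded lone starts by 2.48 points. The percentile difference of head-to-head regions from regions of 1 start was 2.37 with CpG-rich starts only, 6.03 with a −log10 q of 5 or more and 10.1 with regions under 2000 bp. From tail-to-head regions it was 5.63 under 2000 bp and 1.02 at any width, and from tail-to-tail regions 32.1 and 12.04. The difference of shared regions from regions of 1 gene was 6.08 under 2000 bp. With openness by summit, head-to-head pairs exceeded tail-to-tail pairs by 71.4 points and tail-to-head pairs by 32.3. The cause of these shifts was not tested. With 3 libraries the smallest exact two-sided p is 0.25, so a left-out library could not change a call. No paired analysis was possible because there is 1 group, so replicate numbers pair no samples across groups, and differences between region classes were taken within each library. Read depth is unknown, so what it limits cannot be stated.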
